A study of Mus musculus with 9 samples.

Results

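Platelets and the megakaryocytes that shed them carry a small set of surface receptors through which they stick to an injured vessel wall, become activated and aggregate. Here 8 of their genes were followed, Gp1ba, Gp9, Gp5, Itga2b, Itgb3, Gp6, Clec1b and Treml1, among the 2810 genes listed in any of 3 deposited tables of differential expression. The genes were chosen by name, with the differences between the groups already known, and every row carrying 1 of these symbols was taken. All 8 were listed both in the table of male against female cells (2093 genes) and in the table of male against ovariectomized cells (1317 genes), whereas in the table of female against ovariectomized cells (811 genes) only Gp9 and Clec1b were. All 8 had lower levels in the male cells, from 3.84-fold for Treml1 to 49.7-fold for Gp6 against the female cells, the latter from only 10 male reads.

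Bulk RNA sequencing was done on bone marrow cells of C57BL/6J mice bought at 8 weeks of age, in 3 libraries from males (M-EPCs), 3 from females (F-EPCs) and 3 from females ovariectomized at about 35 days of age (OVX-EPCs). In all groups lineage-positive cells were removed, Sca-1+/CD31+ cells were taken on magnetic beads as endothelial progenitor cells (EPCs), and the cells were grown on gelatin in EGM-2, an endothelial growth medium, here low in phenol red and without added estrogen. The labels describe the same samples as freshly isolated and as cultured, so the time in culture before lysis is uncertain, and they do not say how many animals gave a library, so the spread between libraries may be partly technical. A table holds only genes that passed the authors' screen for its comparison, with reads divided by a size factor for each library, here called normalized counts. Reads on the listed genes ranged from 1602317 to 2070442 per library in the table of male against female cells, from 707791 to 923145 in that of male against ovariectomized cells and from 454298 to 468833 in the last. Genes that did not pass a screen were not analysed here.

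As background, the products of Gp1ba, Gp9 and Gp5, together with that of Gp1bb, form the GPIb-IX-V complex, which catches von Willebrand factor on exposed collagen under flow. Itga2b and Itgb3 encode the alpha and beta chains of the fibrinogen receptor that links platelets to each other. The alpha chain is largely restricted to the megakaryocyte line and early haematopoietic cells, whereas the beta chain also pairs with the alpha V chain on endothelial cells and osteoclasts. Gp6 encodes the collagen receptor GPVI, Clec1b the receptor for podoplanin, and Treml1 a receptor stored in alpha granules and brought to the surface on activation. Megakaryocytes switch these genes on through GATA and ETS family transcription factors.

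The upstream sequences of Gp1ba, Gp9, Gp5 and Gp6 are shown because these genes make up the von Willebrand factor and collagen receptors and differ in which of those factors' motifs they hold. Each is the 250 bases before the RefSeq transcript start in GRCm38.p6, read in the direction of the gene, and capitals mark a GATA word (spelled AGATAA, or spelled TGATAA, or spelled AGATAG, or spelled TGATAG) or an ETS word (spelled AGGAAG, or spelled CGGAAG) on either strand, so that a match on the other strand appears as its reverse complement. The windows are chr11:70638872-70639121 (plus strand) for Gp1ba, chr6:87777820-87778069 (plus strand) for Gp9, chr16:30310782-30311031 (minus strand) for Gp5 and chr7:4397745-4397994 (minus strand) for Gp6.
Gp1ba: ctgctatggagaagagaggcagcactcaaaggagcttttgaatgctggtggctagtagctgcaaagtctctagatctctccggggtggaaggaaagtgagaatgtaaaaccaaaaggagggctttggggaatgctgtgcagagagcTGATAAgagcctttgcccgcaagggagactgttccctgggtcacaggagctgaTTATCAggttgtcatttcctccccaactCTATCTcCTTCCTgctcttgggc
Gp9: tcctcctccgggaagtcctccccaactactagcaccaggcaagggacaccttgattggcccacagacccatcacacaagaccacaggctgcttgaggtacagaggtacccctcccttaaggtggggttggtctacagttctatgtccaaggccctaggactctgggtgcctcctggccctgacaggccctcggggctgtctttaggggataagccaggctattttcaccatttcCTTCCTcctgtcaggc
Gp5: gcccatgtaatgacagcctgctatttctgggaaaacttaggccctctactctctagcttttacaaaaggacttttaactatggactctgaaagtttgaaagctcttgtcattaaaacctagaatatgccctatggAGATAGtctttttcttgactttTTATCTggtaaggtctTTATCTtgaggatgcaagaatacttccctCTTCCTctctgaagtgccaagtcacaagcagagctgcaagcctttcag
Gp6: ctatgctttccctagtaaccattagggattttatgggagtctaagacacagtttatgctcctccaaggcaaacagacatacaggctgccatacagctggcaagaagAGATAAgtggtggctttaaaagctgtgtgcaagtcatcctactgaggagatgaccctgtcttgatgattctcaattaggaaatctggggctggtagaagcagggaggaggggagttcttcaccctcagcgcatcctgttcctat

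Gp1ba held 3 GATA words, at -104, -51 and -23 from the start, and an ETS word at -16. Gp5 likewise held 3 GATA words, at -115, -93 and -77, with an ETS word at -48. The bases just after the Gp5 window were not matched in its transcript, unlike those of the other genes shown, so its positions are less certain. Gp9 had an ETS word at -16 and no GATA word, and Gp6 had a GATA word at -144 and no ETS word. No match overlapped another in these windows. Of the 7 members with a promoter in the RefSeq table, 4 (57.1%) held a GATA word and 4 (57.1%) an ETS word, where the shares over all 32851 promoters of the same length were 26.5% and 39.2%. Both words stood together in 2 of the 7 (28.6%), against 9.21% of all promoters. Among 434 promoters of genes lower in M-EPCs in both tables with male cells, the shares were 23.5% for GATA, 37.6% for ETS and 8.53% for both. A match describes letters and no binding, and with 7 promoters these shares are a description only.

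Gp1ba, Gp9 and Gp5 of the GPIb-IX-V complex were low in every male library, and Gp1bb was not analysed here. Gp1ba, which encodes the chain that binds von Willebrand factor (chromosome 11, 70639122-70642036, plus strand, 2 exon blocks), had normalized counts of 40.9, 37.7 and 49.0 in M-EPCs 1 to 3 and 385, 396 and 282 in F-EPCs 1 to 3. It was even among the male libraries, and F-EPC 3 was the lowest female library. Gp9, for a small chain needed to bring the complex to the surface (chromosome 6, 87778072-87779768, plus strand, 2 exon blocks), gave 4.76, 2.69 and 17.9 in M-EPCs against 122, 141 and 113 in F-EPCs. Gp5, for a chain that is cut off by thrombin (chromosome 16, 30307685-30310779, minus strand, 2 exon blocks), gave 12.4, 15.3 and 4.78 in M-EPCs against 435, 337 and 357 in F-EPCs. M-EPC 3 was thus the highest male library for Gp9 and the lowest for Gp5. These male values rest on few reads, 5, 3 and 15 for Gp9 and 13, 17 and 4 for Gp5, and their exact 95% Poisson intervals, which cover counting error only, ran from 0.556 to 7.87 normalized counts for Gp9 in M-EPC 2 and from 10 to 29.6 in M-EPC 3, so that these 2 libraries differed by more than counting error. For Gp5 the intervals of M-EPC 3 (1.30 to 12.2) and M-EPC 2 (8.89 to 24.4) overlapped.

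The mean F-EPC level was 8.32-fold that of M-EPCs for Gp1ba (354 ± 63.1 against 42.6 ± 5.82, SD, n = 3), 14.8-fold for Gp9 (125 ± 14.6 against 8.46 ± 8.27) and 34.8-fold for Gp5 (377 ± 51.9 against 10.8 ± 5.42). No male library reached the lowest female library for any of these 3 genes. Without M-EPC 3, the log2 fold change of Gp9 moved from -4.09 to -4.77.

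The integrin pair had the highest counts of the set in F-EPCs and OVX-EPCs and differed unequally from the male cells, where the Treml1 mean was above that of Itga2b. Itga2b (chromosome 11, 102453297-102470122, minus strand, 28 exon blocks) gave 44.7, 62.0 and 53.8 in M-EPCs and 1425, 1467 and 1662 in F-EPCs. Itgb3 (chromosome 11, 104608000-104670476, plus strand, 16 exon blocks) gave 359, 352 and 311 in M-EPCs and 2695, 2609 and 2763 in F-EPCs. The alpha chain was 28.4-fold and the beta chain 7.90-fold higher in F-EPCs, with means of 1518 ± 127 against 53.5 ± 8.62 and of 2689 ± 77.3 against 341 ± 26.0. Itga2b also had the widest gap between libraries of the 8 genes, its lowest female library standing 23-fold above its highest male library.

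Gp6, Clec1b and Treml1 encode receptors that signal or modulate signalling. Gp6 (chromosome 7, 4363965-4397744, minus strand, 8 exon blocks) had normalized counts of 0.952, 1.80 and 8.37 in M-EPCs, from 1, 2 and 7 reads, and 208, 152 and 192 in F-EPCs. M-EPC 3 was its highest male library, but the 95% Poisson intervals of M-EPC 1 (0.0241 to 5.30) and M-EPC 3 (3.36 to 17.2) overlapped. Without M-EPC 3, the log2 fold change of Gp6 against F-EPCs moved from -5.63 to -6.30. Clec1b (chromosome 6, 129397297-129409335, plus strand, 6 exon blocks) gave 13.3, 18.9 and 23.9 against 123, 115 and 101, a 6.06-fold higher mean in F-EPCs. Treml1 (chromosome 17, 48359916-48367176, plus strand, 5 exon blocks) gave 43.8, 71.0 and 58.6 against 265, 201 and 200.0, and had the smallest difference of the set at 3.84-fold. The female and male libraries did not overlap for any of these genes either. Clec1b shares 184 bases, 3.61% of its exon length, with Clec9a on the same strand, so reads there are uncertain, and no other member shares exon bases with another gene.

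**Figure D1:**
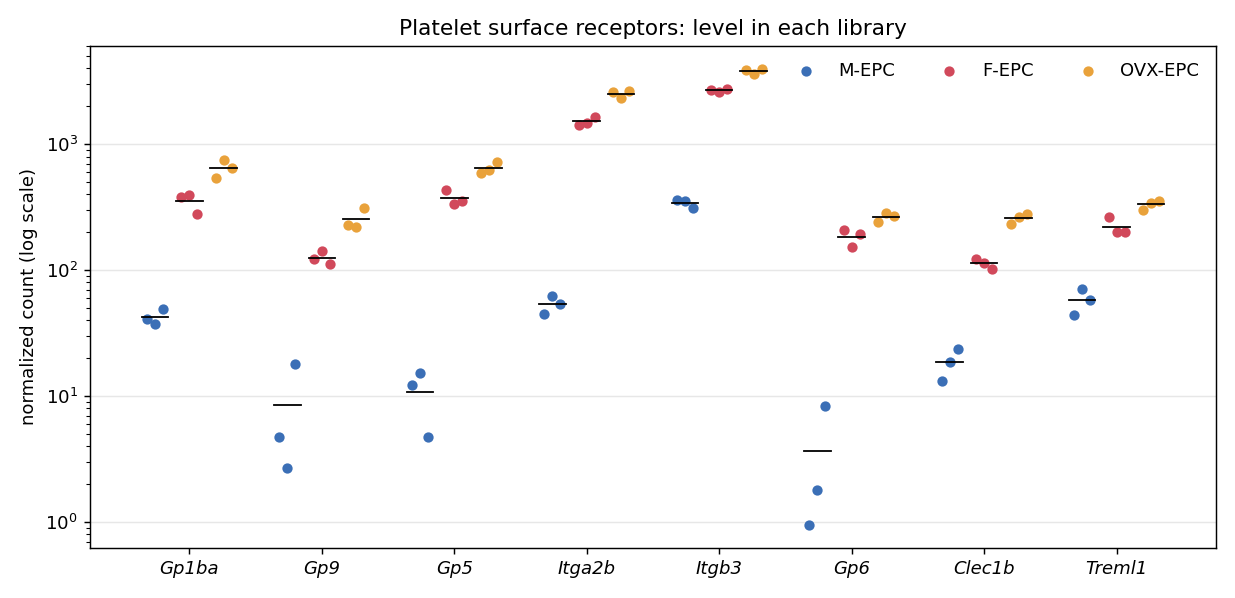
Normalized counts of the 8 receptors in each of the 9 libraries on a log axis, with OVX-EPC values brought to the scale of the male and female table; points are libraries and black lines group means. For every gene the M-EPC points lie below all F-EPC and OVX-EPC points, and Gp9 and Gp6 spread most among the male libraries; the order of OVX-EPCs over F-EPCs rests on the authors' size factors and turned for 6 genes when the listed genes set the scale by RLE.

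On the log2 scale of normalized count plus 1, the M-EPC minus F-EPC differences in the limma fit over the whole table were -5.63 (SE 0.61) for Gp6, -5.12 (0.41) for Gp5, -4.81 (0.15) for Itga2b and -4.09 (0.62) for Gp9. They were -3.02 (0.18) for Gp1ba, -2.98 (0.10) for Itgb3, -2.57 (0.23) for Clec1b and -1.94 (0.22) for Treml1. All 8 met the call used here, an adjusted p under 0.05 with a difference of at least 1, and all 8 had libraries that did not overlap. That is no result about the receptors, since they were chosen on this difference and listed because they passed a screen: 49.3% of the 2093 listed genes met the same call in the same direction (97.6% in either direction), and 49.6% had male libraries wholly below the female ones (98.3% without overlap in either direction). No p is therefore given for them. The median difference of the 8 was -3.56, where that of all listed genes was -0.99 and that of listed genes lower in M-EPCs -1.72. About as many listed genes were higher as lower in M-EPCs, so the sign of the median of all listed genes is not stable, and it was 0.99 when a mean of 10 was asked for. Counted from the most negative difference, Gp6 was number 9 of 2093, Gp5 number 20, Itga2b number 36 and Gp9 number 68, followed by Gp1ba at 185, Itgb3 at 192, Clec1b at 275 and Treml1 at 459. In such bulk libraries, fewer megakaryocyte-line cells and less receptor RNA per cell cannot be told apart.

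Against OVX-EPCs the male cells were lower again. This comparison uses the same M-EPC libraries, so it is no independent repeat, and the values are set side by side. OVX-EPCs 1 to 3 had normalized counts of 552, 764 and 665 for Gp1ba, 234, 226 and 320.3 for Gp9, and 601, 636 and 735 for Gp5. The integrin chains reached 2646, 2372 and 2729 for Itga2b and 4014, 3681 and 4071 for Itgb3. The remaining receptors gave 248, 291 and 275 for Gp6, 239, 272 and 285 for Clec1b and 309, 352 and 366 for Treml1. Each of these libraries lay above every male library, whose values in this table were within 3% of those given for the table with F-EPCs.

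The mean in OVX-EPCs was 71.6-fold that in M-EPCs for Gp6, 59.5-fold for Gp5, 47.2-fold for Itga2b and 30.1-fold for Gp9, and 15.2-fold for Gp1ba, 13.9-fold for Clec1b, 11.3-fold for Itgb3 and 5.79-fold for Treml1. The log2 differences were -6.17 (SE 0.59), -5.90 (0.41), -5.55 (0.17) and -5.10 (0.62) for Gp6, Gp5, Itga2b and Gp9. They were -3.89 (0.19), -3.76 (0.23), -3.49 (0.13) and -2.54 (0.21) for Gp1ba, Clec1b, Itgb3 and Treml1. The order of the 8 genes by this difference was the one found against F-EPCs, apart from Clec1b, whose difference was larger than that of Itgb3 here. All 8 met the call, as did 58% of the 1317 listed genes in this direction (98.8% in either), and 58% had libraries wholly lower in M-EPCs (99.2% without overlap in either direction). Their median of -4.49 compares with -1.26 over all listed genes and -2.36 over those lower in M-EPCs. When DESeq2 or edgeR with RLE factors set the scale from the listed genes, the median of all listed genes shifted by 0.63 and the members' median was -3.83 and -3.85. The members' distance from the median of all listed genes was near -3.2 each time. A size factor moves all genes of a library alike, so that distance could hardly change and is no check. Without M-EPC 3, Gp6 moved from -6.17 to -6.84 and Gp9 from -5.10 to -5.78.

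**Figure D2:**
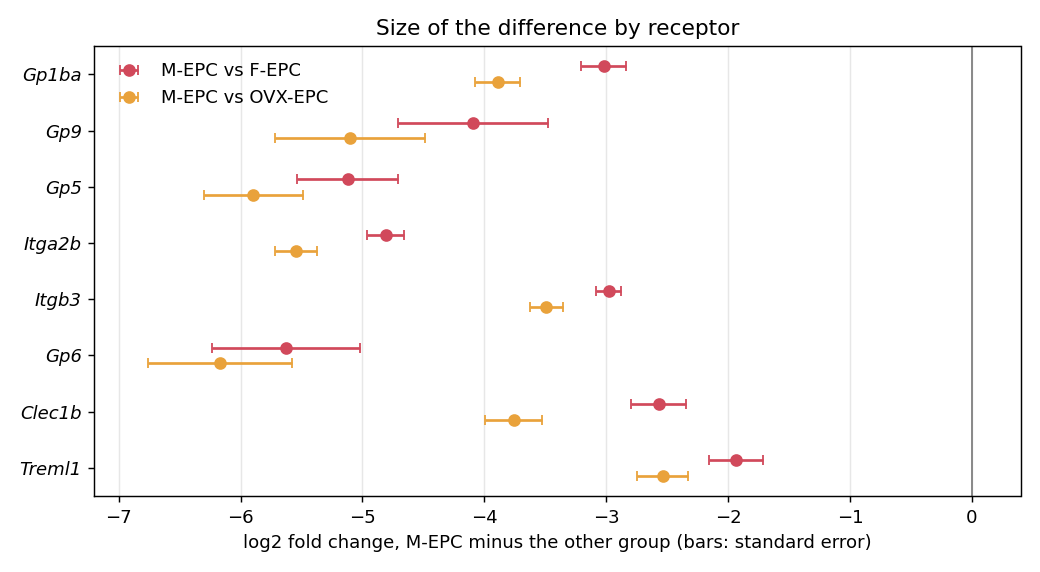
Log2 fold change of each receptor, M-EPC minus F-EPC (red) and M-EPC minus OVX-EPC (orange), with standard errors from limma fitted over each whole table (3 libraries per group). All 16 values lie below 0, from -1.94 for Treml1 to -6.17 for Gp6, and on the authors' size factors the orange value is the lower of each pair; both comparisons share the M-EPC libraries, and when the listed genes set the scale by RLE the order turned for 6 of the 8 pairs.

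The female and ovariectomized cells were compared directly for only Gp9 and Clec1b. Gp9 had normalized counts of 127, 146 and 117 in F-EPCs and 238, 229.7 and 326 in OVX-EPCs, means of 130.1 ± 15.0 and 265 ± 53.3. Clec1b had 128, 119 and 105 in F-EPCs and 243, 276 and 289.7 in OVX-EPCs, means of 117 ± 11.4 and 269 ± 23.9. OVX-EPCs were 2.03-fold higher for Gp9 (log2 difference F-EPC minus OVX-EPC -1.01, SE 0.19) and 2.29-fold higher for Clec1b (-1.19, SE 0.14), without overlap between libraries. Both met the call, as did 67.3% of the 811 listed genes in this direction (98.2% in either), and 68.2% had libraries wholly lower in F-EPCs (98.9% without overlap in either direction). The direction rests on the authors' size factors: scaled on the 811 listed genes instead, the difference was 0.11 by TMM and 0.10 by RLE or DESeq2 for Gp9 and -0.07 by each for Clec1b, and neither was called. Without F-EPC 1, F-EPC 3 or OVX-EPC 3, the Gp9 difference fell short of 1, at -0.99, -0.93 and -0.85.

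The other 6 receptors could be placed through the M-EPC libraries, whose reads were the same in both tables with male cells. Their size factors differed between those tables by a factor of 0.978 (0.977 to 0.979), which puts the OVX-EPC counts on the F-EPC scale. On that scale the OVX-EPC mean was 2.29-fold that of F-EPCs for Clec1b, 2.03-fold for Gp9, 1.82-fold for Gp1ba, 1.71-fold for Gp5, 1.66-fold for Itga2b, 1.51-fold for Treml1, 1.44-fold for Gp6 and 1.43-fold for Itgb3. The OVX-EPC mean was the greater for all 8, as for 69.8% of the 807 genes in both tables and 71.2% of the 459 lower in M-EPCs in both. For each member no F-EPC library reached an OVX-EPC library, which held for 37.5% of the 807 and 38.1% of the 459. The authors' screen asked for a fold of 2, with Gp9 at 2.03 just inside it and Gp1ba just outside at 1.83 on the size factors of the female and ovariectomized table. The median log2 ratio of the 8 was 0.75, against 0.34 over the 807 genes and 0.39 over the 459. By rank from the highest ratio among the 807, the members ran from number 90 (Clec1b) and 117 (Gp9) to 305 (Gp6) and 318 (Itgb3), and all 8 were above the median.

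Whether these receptors were higher in OVX-EPCs in absolute terms depends on the scale. With TMM factors of the listed genes all 8 log2 ratios stayed above 0 (0.40 to 1.08), but with RLE factors only Clec1b (0.22) and Gp9 (0.05) did and the other 6 ran from -0.11 to -0.47, while the median of all 807 genes moved to -0.61. The members' distance above the median of the 807 genes was 0.42 on the authors' factors, 0.42 with TMM and 0.38 with RLE, and all 8 were above that median each time. A size factor moves all genes of a library alike, so this distance could hardly change and is no check on the result. These scalings were added after the data had been seen.

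**Figure D3:**
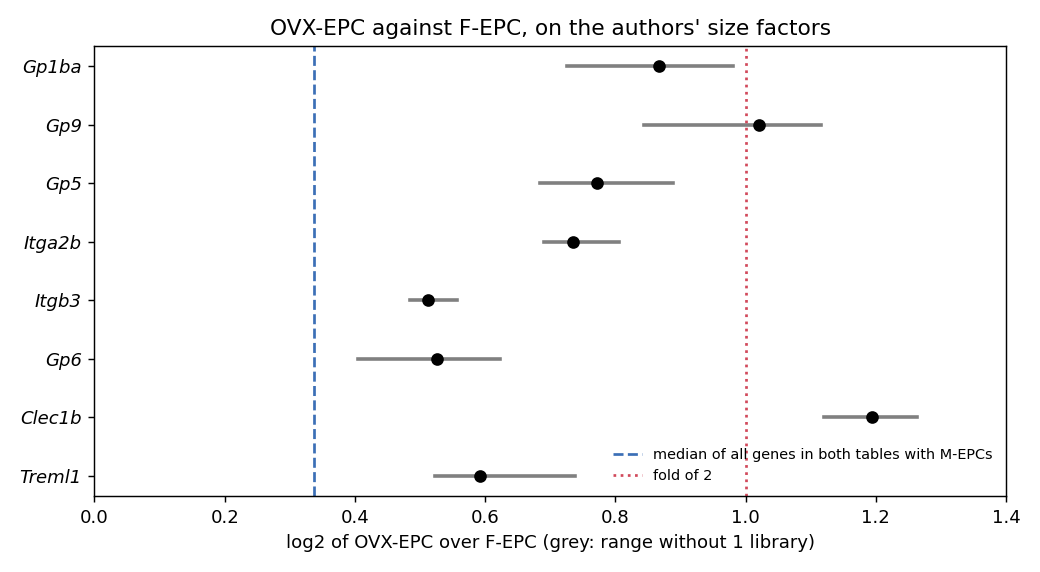
Log2 ratio of the OVX-EPC to the F-EPC mean for each receptor on the authors' size factors, with the range when any 1 library is left out (grey bars), the median of the 807 genes listed in both tables with male cells (dashed) and a fold of 2 (dotted). Gp9 and Clec1b lie above a log2 ratio of 1 and Itgb3 and Gp6 are the lowest at 0.51 and 0.53; scaled by RLE on the listed genes, 6 of the 8 points fall below 0 together with the dashed line.

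Ratios between members within a library do not depend on the scale. Per kilobase of exon, the Itga2b count was 0.171 ± 0.0312 of the Itgb3 count in M-EPCs (0.135 to 0.190), 0.610 ± 0.0396 in F-EPCs (0.572 to 0.651) and 0.712 ± 0.0140 in OVX-EPCs (0.697 to 0.725). The alpha chain was thus scarcest relative to the beta chain in the male cells, and the 3 groups did not overlap. With the longest transcript of each gene as its length, the ratios were 0.266, 0.95 and 1.11, and the factor between groups was the same. Within the von Willebrand factor receptor, the ratio of Gp5 to Gp9 was 1.22 ± 0.241 in F-EPCs and 1.03 ± 0.103 in OVX-EPCs, and that of Gp1ba to Gp9 was 0.913 ± 0.106 and 0.844 ± 0.222. Both ratios overlapped between those groups, and in M-EPCs they ranged widely, at 1.14 ± 1.09 and 2.74 ± 1.83. The ratio of Gp1ba to Gp5 was 2.0 to 8.29 in M-EPCs, above the 0.637 to 0.950 of F-EPCs and the 0.731 to 0.971 of OVX-EPCs, with the male values resting on the few Gp5 reads given with its counts.

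Summed over the 8 genes, the normalized counts were 536 ± 22.2 in M-EPCs, 5583 ± 142 in F-EPCs and 8765 ± 429 in OVX-EPCs. Itgb3 made up 63.6 ± 5.10% of this sum in M-EPCs, 48.2 ± 0.544% in F-EPCs and 43.8 ± 1.41% in OVX-EPCs. The share of Itga2b was 9.95 ± 1.24%, 27.2 ± 2.07% and 28.8 ± 1.16%. Most of the members' counts in the male libraries were thus those of Itgb3, and without the integrins the sums were 142 ± 23.7, 1375.5 ± 149 and 2402 ± 237. The larger OVX-EPC than F-EPC sum carries the dependence on scale given for the single genes.

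Per kilobase of exon the order of the levels was alike in F-EPCs and OVX-EPCs at the top and different in M-EPCs. In F-EPCs the mean was 456 for Itgb3 and 278 for Itga2b, then 171 for Gp5, 158 for Treml1, 142 for Gp9 and 130.3 for Gp1ba, and then 31.2 for Gp6 and 22.2 for Clec1b. In that order, neighbours from Gp5 to Gp1ba overlapped between libraries. OVX-EPCs gave 650.1 for Itgb3, 463 for Itga2b, 293 for Gp5, 289 for Gp9, 239 for Treml1, 238 for Gp1ba, 50.8 for Clec1b and 44.9 for Gp6, with overlap from Gp5 to Gp1ba and between the last pair. In M-EPCs Itgb3 led at 57.7 and Treml1 came next at 41.2, ahead of Gp1ba at 15.7, while Itga2b (9.81), Gp9 (9.61), Gp5 (4.92) and Clec1b (3.66) overlapped with their neighbours and Gp6 was lowest at 0.628. Itga2b thus stood directly after Itgb3 in both female groups, but in the male cells it came after Treml1 and Gp1ba. Itga2b has transcripts of quite unlike length, and with the longest one as its length its level in F-EPCs was 442, it passed Itgb3 in OVX-EPCs, and its 15.6 in M-EPCs was level with the 15.7 of Gp1ba.

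**Figure D4:**
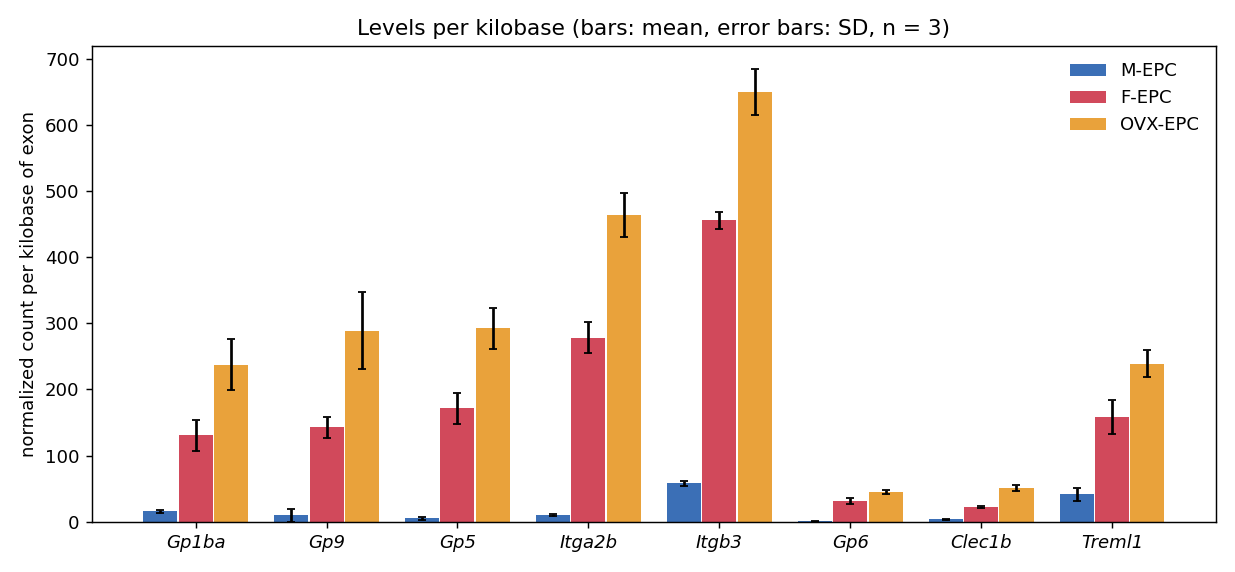
Mean normalized count per kilobase of exon for each receptor in the male (M-EPC), female (F-EPC) and ovariectomized (OVX-EPC) group, with SD over 3 libraries. Itgb3 and Itga2b are the highest pair in F-EPCs (456 and 278) and OVX-EPCs (650.1 and 463), whereas Itgb3 and Treml1 are in M-EPCs (57.7 and 41.2); the heights of OVX-EPCs over F-EPCs rest on the authors' size factors and turn for 6 genes under RLE factors of the listed genes.

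The genes around the receptors were taken from lists by function. Of 33 other platelet and megakaryocyte surface receptors, 18 were listed against F-EPCs, of which 17 were called lower in M-EPCs and 1 higher, and 17 were listed against OVX-EPCs, all called lower. Those with the largest differences against F-EPCs were Selp, encoding the P-selectin of alpha granules (log2 difference -6.11 against F-EPCs and -6.77 against OVX-EPCs), Ly6g6f (-5.00 and -5.22), P2rx1, an ATP-gated channel (-4.95 and -5.43), and F2rl3, a thrombin receptor (-4.94 and -5.75). Selp was at 3.81, 1.80 and 0 normalized counts in M-EPCs and at 165, 163 and 163 in F-EPCs. The gene that was higher in M-EPCs was Pecam1, named after its values were seen, which encodes the CD31 used in the sort (487 ± 3.64 in M-EPCs and 157 ± 7.56 in F-EPCs, log2 difference 1.62). In that comparison its level ran opposite to that of the 8 receptors. It was not listed against OVX-EPCs, and its F-EPC minus OVX-EPC difference on the authors' factors was -1.21, of the same sign as those of Gp9 and Clec1b.

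**Figure D5:**
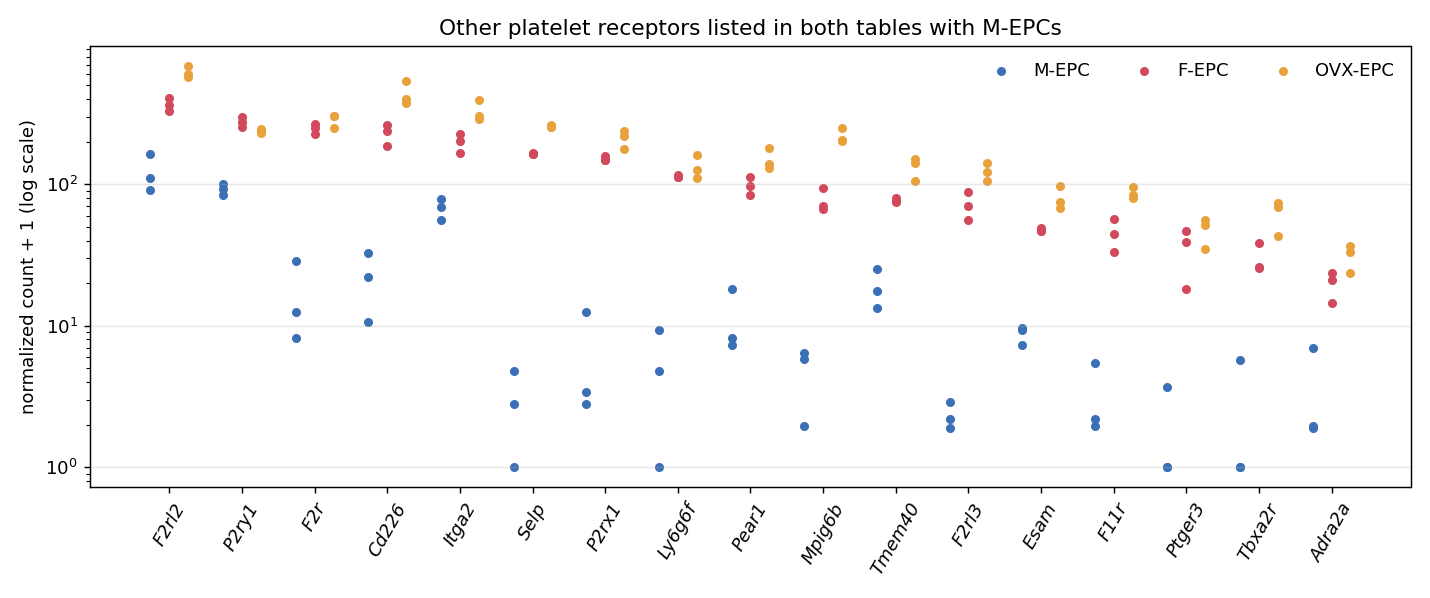
Normalized count plus 1, on a log axis, of the 17 other platelet receptors listed in both tables with male cells, in each library, ordered by their F-EPC mean, with OVX-EPC values brought to the same scale. For every gene the 3 M-EPC points lie below the F-EPC and OVX-EPC points, and Selp and Ly6g6f are among those with a male library at 0 counts.

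Ligands of the receptors moved both ways. Of 20 ligand genes, 8 were listed against F-EPCs, with 2 called lower and 6 higher in M-EPCs, and 4 against OVX-EPCs, all called lower. Vwf, the ligand of the Gp1ba product, was lower in M-EPCs (232 ± 18.3 against 2351 ± 53.1 in F-EPCs, log2 difference -3.34, and -3.86 against OVX-EPCs). Spp1, encoding osteopontin, which binds integrins with the beta chain of Itgb3, was lower as well (-4.26 and -2.63). By contrast Pdpn, encoding the podoplanin bound by the Clec1b product and named after its values were seen, was raised in M-EPCs (123 ± 10.5 against 40.5 ± 11.1 in F-EPCs, log2 difference 1.61), and its F-EPC minus OVX-EPC difference on the authors' factors was -2.12. Among the other ligands higher in M-EPCs, and also named after their values were seen, were the integrin ligands Fn1, encoding fibronectin (1163 ± 47.2 against 252 ± 70.3 in F-EPCs, log2 difference 2.24), and Edil3 (25.9 ± 12.6 in M-EPCs and 0 in all F-EPCs). Of 30 signalling genes downstream of the receptors only 4 were listed against F-EPCs, 3 called lower and 1 higher in M-EPCs. Those lower in both tables were Lat, the adaptor downstream of the Gp6 and Clec1b products (-4.05 and -4.96), Prkcq (-1.99 and -2.65) and Grap2 (-1.73 and -2.84).

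Of 15 transcription factors of the megakaryocyte line, 6 were listed in each table with male cells and all 6 were called lower in M-EPCs. The other genes of that list were not analysed here. Gata2 had differences of -5.87 and -6.28, Gfi1b -5.54 and -6.27, Gata1 -5.07 and -5.98, and Nfe2, which drives platelet release, -2.98 and -3.59. Of 24 platelet granule and cytoskeleton genes, 16 were listed against F-EPCs, 15 called lower and 1 (Srgn, named after its values were seen) higher in M-EPCs, and 15 against OVX-EPCs, all called lower. Trpc6 (-5.66 and -6.15), Mmrn1 (-5.35 and -5.98), Ppbp (-5.35 and -5.79) and F5 (-4.24 and -5.25) had the largest differences against F-EPCs. As with the receptors, these counts stand beside 49.3% and 58% of all listed genes.

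Markers of cell types that could carry these receptors were listed in part, in both directions. Megakaryocyte markers other than the 8 genes (Pf4, Ppbp, Tubb1, Nfe2 and Gata1, 5 of 6 listed, all called lower in M-EPCs) summed to 990.0 to 1073 in M-EPCs, 5982 to 6191 in F-EPCs and 6876 to 7116 in OVX-EPCs, where the order of the female groups rests on the authors' size factors. Pf4, the largest of them in M-EPCs and F-EPCs, ran the other way between those groups, at 3527 ± 65.6 in F-EPCs and 3049 ± 206 in OVX-EPCs, each on the scale of its own table with male cells. On those scales the other markers were higher in OVX-EPCs. Means in F-EPCs and OVX-EPCs were 2196 and 3061 for Ppbp, 135 and 643 for Tubb1, 181 and 282 for Nfe2 and 73.9 and 133 for Gata1. Only Tubb1 was listed for F-EPCs against OVX-EPCs, at -2.24. Of 13 endothelial markers 5 were listed against F-EPCs, and the 4 in both tables (Kdr, Tie1, Vwf and Esam) summed to 312 to 344, 2766 to 2821 and 3680 to 4017 in the same order of groups, whereas the fifth, Pecam1, was higher in M-EPCs and the other markers were not analysed here. Most of each sum was Vwf, with means of 232 in M-EPCs, 2351 in F-EPCs and 3452 in OVX-EPCs. Kdr was at 65.0, 343 and 369. The order of the female groups again rests on the authors' size factors. Progenitor and mast cell or basophil markers (Kit, Cpa3, Mcpt8 and Ms4a2, 4 of 6) summed to 31.1 to 42.8, 203 to 262 and 302 to 392, with Mcpt8 at 0 in all male libraries and the same dependence on the size factors. Of the 11 macrophage and osteoclast markers, cells in which Itgb3 is also known, only Dcstamp was listed, and it was higher in M-EPCs than F-EPCs. Myeloid and dendritic cell markers were listed against F-EPCs for 3 of 7 (Flt3, S100a8 and S100a9), all called lower in M-EPCs, with Flt3 at -3.70 and -3.16 in the comparisons with F-EPCs and OVX-EPCs. Against OVX-EPCs 2 of the 7 were listed, both called lower in M-EPCs. On the authors' factors S100a8 and S100a9 had F-EPC minus OVX-EPC differences of 2.76 and 3.24, opposite in sign to those of Gp9 and Clec1b. Of 5 erythroid markers Epor alone was listed against F-EPCs, and it was higher in M-EPCs (log2 difference 1.53). It was not listed for M-EPCs against OVX-EPCs, and its F-EPC minus OVX-EPC difference on the authors' factors was -1.95. The part of each cell type in the receptor differences was not tested.

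The 807 genes in both tables with male cells were also ranked by how closely their 9 libraries followed the mean pattern of the 8 receptors, as the root mean square distance on the log2 scale. The nearest were Mfsd2b (0.23), which exports sphingosine 1-phosphate from red cells and platelets, Nrgn (0.25), Tmem151b (0.26), Ehd3 (0.26) and Vsig2 (0.29). Mfsd2b had means of 29.3 ± 2.76 in M-EPCs, 347 ± 13.7 in F-EPCs and 546 ± 23 in OVX-EPCs. The receptors themselves lay at 0.37 for Gp1ba, 0.49 for Itgb3, 0.51 for Clec1b and Itga2b, 0.54 for Gp9, 0.80 for Gp5, 0.92 for Treml1 and 0.94 for Gp6. Gp1ba was therefore the receptor nearest to the shared pattern, and Treml1, with the smallest difference, and Gp6, with the largest, were the farthest. Their ranks among the 807 genes were 16, 197 and 200, so genes outside the set lay closer to the mean pattern than any receptor. Of the nearest genes Tmem151b (means of 0 in M-EPCs and 12.3 in F-EPCs) and Vsig2 (0.40 and 14.7) had low counts, where the added 1 weighs on the distance.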

How the data were processed

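RNA sequencing of 9 mouse libraries, 3 per group, was analysed from 3 deposited tables, 1 per pair of groups. The authors aligned reads to mm10 with HISAT2, used Cufflinks and Cuffnorm, and tested with DESeq; versions and the strand setting of counting are not given in the sources used here. The deposited signal of a library is its read count divided by a size factor, and all values gave whole reads (tolerance 0.01). The tables hold genes past the authors' screen, and their columns of fold changes and p-values were not used. Groups came from the sample titles. The members and gene lists were chosen with earlier results of these data known.

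Normalized counts were compared as log2(value + 1) in limma 3.58.1 (R 4.3.3) over each whole table, keeping genes whose mean reached 1 in some group, with p-values adjusted by Benjamini-Hochberg across that table. The call was an adjusted p below 0.05 with a log2 fold change of 1 or more in size, a procedure tested on simulated data beforehand. In that simulation a minority of genes changed, equally up and down. The screened tables, where nearly all genes were called, are unlike it, so it does not test the call there. With 3 against 3 libraries an exact permutation test cannot go below p = 0.10. Gene models were GENCODE M21 on GRCm38, where all 8 genes matched, and promoters RefSeq. Alternatives were a pseudocount of 0.1, other filters and thresholds, leaving out each library, a replicate block, and edgeR 4.0.16 and DESeq2 1.42.0 on the recovered reads. Genes of a list were named where listed in both tables with M-EPCs and among the 4 largest differences against F-EPCs, with the 5 genes nearest the members' pattern. Pecam1, Pdpn, Fn1, Edil3, Srgn, Dcstamp, Epor, S100a8, S100a9, Pf4 and Tie1 fall outside that rule in the text and were named after their values were seen. 1 further gene was left out of the lists and is not reported here.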

Additional observations from a re-analysis of the deposited data

How the results depend on the processing

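In both comparisons with M-EPCs all 8 receptors were called under all 16 alternatives, including edgeR and DESeq2 on the recovered reads. With the main settings 97.6% of all listed genes were called against F-EPCs and 98.8% against OVX-EPCs. Lower in M-EPCs were 49.3% and 58% of them. The genes had passed a screen on the same libraries, so these counts are no result about the receptors. The M-EPC minus OVX-EPC median of the members was -3.85 with edgeR and RLE factors and -3.83 with DESeq2, where those factors, set on listed genes only, shifted the median of all listed genes by 0.63. Without 1 library the medians ran from -3.90 to -3.30 against F-EPCs and from -4.72 to -4.20 against OVX-EPCs.

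The comparison of F-EPCs with OVX-EPCs depends on the scale. With edgeR and TMM, edgeR and RLE, or DESeq2, which shift the median of all listed genes by 1.13 to 1.14, 0 of the 2 listed receptors were called, and the median was 0.024, 0.016 and 0.016 in that order, with Gp9 at 0.11, 0.10 and 0.10 and Clec1b at -0.07 each time. Without 1 library, 1 to 2 were called. Of all 811 listed genes 98.2% were called with the main settings, and their share under these other settings is not given here. Placed through the M-EPC libraries, the log2 ratios of OVX-EPCs to F-EPCs with RLE and with DESeq2 were -0.11 and -0.11 for Gp1ba, -0.20 and -0.21 for Gp5, -0.43 and -0.45 for Gp6, -0.25 and -0.25 for Itga2b, -0.47 and -0.47 for Itgb3 and -0.39 and -0.39 for Treml1. The size factors of the female and ovariectomized table left these 6 genes at 0.52 to 0.87.

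Samples with the same number did not deviate together (correlations of -0.019 to 0.0324), and with the replicate block the counts called were 8, 8 and 2, as without it. Gp9, Gp5 and Gp6 in M-EPCs rest on 23, 34 and 10 reads in all, and their differences from F-EPCs and from OVX-EPCs had the largest SEs of the 8 genes. Only listed genes could set an alternative scale here.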
